A study of Homo sapiens with 24 samples.

Results

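The subject is the response of MDA-MB-231 cells to BETi-211, an inhibitor of BET proteins, read from 6 of the 24 RNA sequencing libraries of a series on 3 triple-negative breast cancer lines. The libraries were those of MDA-MB-231 treated with BETi-211 and, as the comparison, with DMSO or thalidomide, and all 14114 genes of the deposited table were compared. MDA-MB-231 is an established human line from the mammary gland, labelled as basal, negative for oestrogen receptor alpha and progesterone receptor and without HER2 overexpression. Cells in RPMI medium with 10% serum received BETi-211 at 1000 nM (2 libraries), thalidomide at 1000 nM (2 libraries) or DMSO at 0.05% by volume (2 libraries), each for 3 h. Thalidomide is a ligand of cereblon, the substrate receptor of a ubiquitin ligase, and the series counts its libraries with DMSO as controls, 4 in all. BETd-246 at 100 nM, a degrader of BET proteins given to the same line for 3 h (2 libraries), is quoted beside BETi-211. Its dose was another and its changes were taken against the same 4 control libraries, so the values of the compounds stand side by side and were not compared.

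BET proteins, BRD2 and BRD3 among them, bind acetylated lysines of histones through their bromodomains and help to bring the elongation kinase P-TEFb to promoters and enhancers. Inhibitors occupy the acetyl-lysine pocket and release the proteins from chromatin. MYC is the target gene most often cited in blood cancers, and HEXIM1, a protein that holds P-TEFb inactive with the 7SK RNA, is often used as a readout of BET inhibition.

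Values are FPKM, the fragments per kilobase of transcript relative to all mapped fragments of a library, so each is a share of its library and absolute RNA amounts were not measured. Per-library sums were 492020 to 504165 FPKM with BETi-211 and 454289 to 479454 FPKM in the controls, while the median gene stood at 7.84 to 7.97 FPKM with BETi-211 and at 8.57 to 8.77 FPKM in the controls. Mitochondrial genes supplied 13.4% to 14.28% of the sum with BETi-211 and 9.79% to 13.99% in the controls. Depth, estimated from the step that a single fragment makes at low values, was 35100000 to 44800000 fragments with BETi-211 and 38200000 to 51000000 fragments in the controls. Thalidomide replicate 1 stood apart from the other controls: its log2 values correlated with theirs across genes at r = 0.992 to 0.994, against 0.998 among the other controls and 0.998 between the BETi-211 libraries. Markers were those of a mesenchymal breast cancer line. VIM averaged 999 FPKM with BETi-211 and 891 FPKM in the controls, AXL 560 FPKM with BETi-211 and 547 FPKM in the controls, and CD44 338 FPKM with BETi-211 and 342 FPKM in the controls. The keratins KRT8 and KRT18 were also high, at 170 and 217 FPKM with BETi-211 and 160 and 221 FPKM in the controls, whereas CDH1 was at 0.160 FPKM with BETi-211 and 0.177 FPKM in the controls. Of the 5 measured genes of the basal marker list, the 4 keratins KRT5, KRT14, KRT17 and KRT6B were under 1 FPKM in the controls. EGFR, the other measured basal marker, was not low. The 5 genes summed to 41.5 to 44.8 FPKM with BETi-211 and 45.7 to 58.9 FPKM in the controls. The summed markers of endothelial cells and fibroblasts (6 of 9 measured) came to 2.84 to 2.98 FPKM with BETi-211 and 2.88 to 3.03 FPKM in the controls, and those of immune cells (2 of 8 measured) to 0.701 to 0.972 FPKM with BETi-211 and 0.859 to 1.08 FPKM in the controls. In such bulk RNA, fewer cells expressing a gene and less RNA per cell cannot be told apart.

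Within 3 h, BETi-211 was followed by changes in about as many genes as it left uncalled, in a fit to all 24 libraries. Genes were ranked among those called, at 5 FPKM or more and with both BETi-211 libraries beyond all 4 controls. Of these, HAS2, LIF and DKK1 had the largest falls, and TNFSF9, HIST2H4B, FAM222A and CDKN1A the largest rises. A gene was called when limma's test on log2(FPKM + 1) gave a Benjamini-Hochberg adjusted p below 0.05 over all 14114 genes. By that rule 7067 genes were called (50.1%), of which 4426 were lower (31.4%) and 2641 higher (18.7%) with BETi-211. A change of at least 2-fold on that scale was reached by 207 lower genes (1.47%) and 191 higher genes (1.35%). Both BETi-211 libraries lay below all 4 controls for 4857 genes (34.4%) and above them for 3168 (22.4%). With the 6 compared libraries fitted alone, 4864 genes were called, 3166 lower and 1698 higher. The balance between directions depended on how libraries were scaled: higher genes were 37.4% of calls with the deposited values and 25.1% after scaling to equal column totals, but 50.5% with quantile normalization, 52.9% with upper-quartile scaling and 53.6% with median-of-ratios scaling. Among the 2-fold calls the higher share was 48.0% with the deposited values and 39.3%, 60.9%, 56.3% and 57.2% under those scalings, in the same order. Without thalidomide replicate 1, 4749 genes were called lower and 2597 higher, 213 and 190 of them at least 2-fold.

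**Figure D1:**
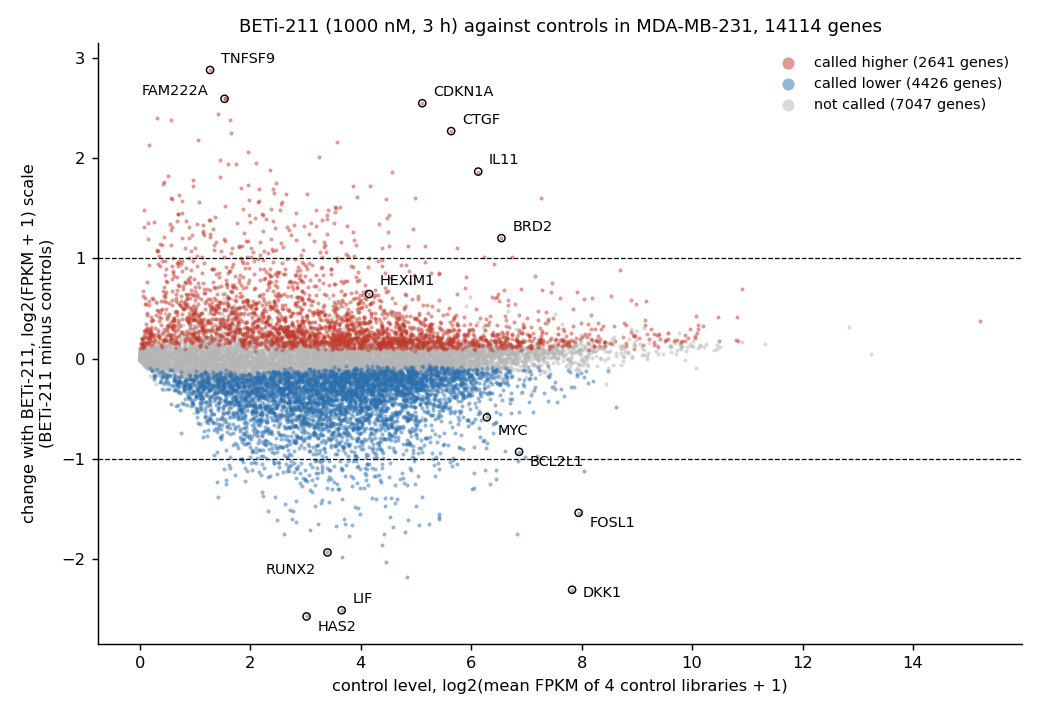
Change with BETi-211 against the control level of each gene in MDA-MB-231. The x axis is log2 of the mean FPKM of the 4 control libraries plus 1, the y axis is BETi-211 minus controls on the log2(FPKM + 1) scale, colours mark the limma call, and dashed lines mark 2-fold. Of 14114 genes, 2641 were called higher and 4426 lower, TNFSF9 is the highest named point at 2.88 and HAS2 the lowest at -2.57.

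HAS2, LIF and DKK1 are described first, with fold values that are ratios of FPKM + 1 unless a ratio of mean FPKM is named. HAS2, the hyaluronan synthase that makes a matrix polysaccharide, had 0.326 and 0.397 FPKM with BETi-211 and 1.73 and 1.68 FPKM with BETd-246, against 7.79 and 7.71 FPKM with DMSO and 6.38 and 6.53 FPKM with thalidomide. The fitted change was -2.57 ± 0.042 (SE, limma adjusted p = 1.54e-15), a 5.94-fold fall, and 19.7-fold as the ratio of mean FPKM. LIF, a cytokine of the interleukin 6 family (chromosome 22, 30240447 to 30246851, GRCh38), had 1.34 and 1.10 FPKM with BETi-211 and 3.84 and 3.40 FPKM with BETd-246, against 11.1 and 11.4 FPKM with DMSO and 11.9 and 12 FPKM with thalidomide. LIF fell 5.69-fold (log2 change -2.51 ± 0.068, adjusted p = 1.12e-13), and 9.52-fold as the ratio of mean FPKM. DKK1, a secreted Wnt antagonist (chromosome 10, 52314296 to 52318042), had 44.7 and 45.0 FPKM with BETi-211 and 34.0 and 34.6 FPKM with BETd-246, against 236 and 234 FPKM with DMSO and 194 and 240 FPKM with thalidomide. It was far more abundant than HAS2 or LIF on the FPKM scale and fell 4.94-fold (log2 change -2.30 ± 0.063, adjusted p = 1.18e-13, and 5.04-fold as the ratio of mean FPKM), thalidomide replicate 1 being the lowest control.

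The next 12 falls took in genes of secreted proteins, intracellular signalling and transcription. NOG, the BMP antagonist noggin, averaged 4.38 ± 0.42 FPKM with BETi-211 (SD, n = 2) and 20.9 ± 1.2 FPKM in the controls (SD, n = 4), a log2 change of -2.02 ± 0.055. CLCF1, another cytokine of the interleukin 6 family, averaged 2.25 FPKM with BETi-211 and 11.7 FPKM in controls (log2 change -1.97 ± 0.10), and PLAU, the urokinase protease, 33.1 FPKM with BETi-211 and 113 FPKM in controls (-1.74 ± 0.035). IRS1, the adaptor of insulin and IGF receptors, averaged 4.77 FPKM with BETi-211 and 19.9 FPKM in the controls (-1.86 ± 0.038). RIN2, an exchange factor for Rab GTPases, averaged 5.29 FPKM with BETi-211 and 27.5 FPKM in controls (-2.18 ± 0.042), and PDE4D, a phosphodiesterase that degrades cyclic AMP, 5.34 FPKM with BETi-211 and 20.3 FPKM in controls (-1.75 ± 0.065). The transcription factor RUNX2, known for its part in bone formation, averaged 1.73 FPKM with BETi-211 and 9.54 FPKM in controls (-1.93 ± 0.11). SOX9 averaged 6.40 FPKM with BETi-211 and 22.8 FPKM in controls (-1.68 ± 0.090). KLF6 averaged 7.30 FPKM with BETi-211 and 26.7 FPKM in controls (-1.73 ± 0.10). The zinc finger gene ZNF689 averaged 0.83 FPKM with BETi-211 and 5.13 FPKM in controls (-1.74 ± 0.061). The last of the 15 were COIL, the scaffold of Cajal bodies, at 3.03 FPKM with BETi-211 and 12.8 FPKM in controls (-1.77 ± 0.041), and SERTAD4 at 1.60 FPKM with BETi-211 and 7.48 FPKM in controls (-1.71 ± 0.045). All 15 fell 3.20- to 5.94-fold on the FPKM + 1 scale with adjusted p of 7.15e-10 or less. The log2 changes of BETd-246 for the same genes were -1.58 for HAS2, -1.45 for LIF, -2.68 for DKK1, -1.37 for NOG, -1.76 for CLCF1, -0.69 for PLAU, -1.12 for IRS1, -0.84 for RIN2, -1.07 for PDE4D, -0.90 for RUNX2, -2.29 for SOX9, -2.43 for KLF6, -1.54 for ZNF689, -1.51 for COIL and -0.90 for SERTAD4.

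**Figure D2:**
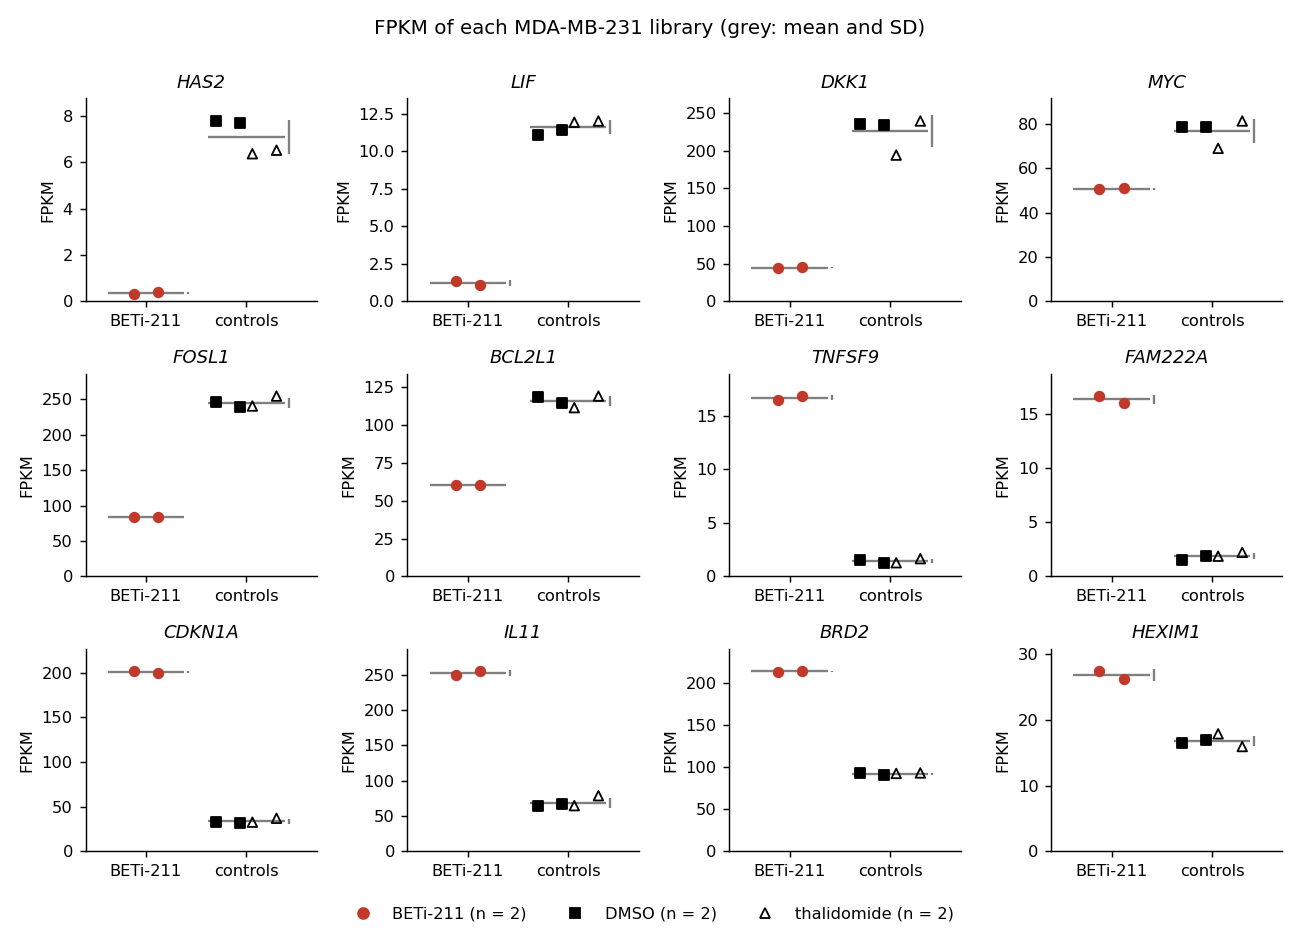
FPKM of every compared MDA-MB-231 library for 12 genes, with BETi-211 (circles, n = 2) left of the controls (squares DMSO, triangles thalidomide, n = 4), grey lines for means and grey bars for SD. BETi-211 and control libraries do not overlap in any of the 12 panels. The naming rule required this of HAS2, LIF, DKK1, TNFSF9, FAM222A and CDKN1A. HAS2, LIF, DKK1, MYC, FOSL1 and BCL2L1 were lower with BETi-211, and TNFSF9, FAM222A, CDKN1A, IL11, BRD2 and HEXIM1 were higher.

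MYC, the gene for the growth-promoting transcription factor, had a smaller change than these. It had 50.5 and 51.2 FPKM with BETi-211 and 12.8 and 12.4 FPKM with BETd-246, against 78.5 and 78.6 FPKM with DMSO and 69.1 and 81.4 FPKM with thalidomide, and fell 1.5-fold with BETi-211 on the FPKM + 1 scale (log2 change -0.58 ± 0.065, adjusted p = 1.33e-06). The log2 change with BETd-246 was -2.51. HEXIM1 rose: it had 27.4 and 26.2 FPKM with BETi-211 and 6.44 and 6.39 FPKM with BETd-246, against 16.4 and 16.9 FPKM with DMSO and 17.9 and 15.9 FPKM with thalidomide (log2 change 0.64 ± 0.052, adjusted p = 3.29e-08, and -1.26 with BETd-246). Of the direct targets, BRD2 rose 2.30-fold on the same scale. It had 214 and 214 FPKM with BETi-211 and 53.1 and 54.4 FPKM with BETd-246, against 93.3 and 90.8 FPKM with DMSO and 92.8 and 93.4 FPKM with thalidomide (log2 change 1.20 ± 0.040, adjusted p = 1.11e-12). BRD3 was not called, at 5.30 FPKM with BETi-211 and 4.97 FPKM in the controls (log2 change 0.09 ± 0.078, adjusted p = 0.388). CRBN, the gene of cereblon, averaged 11.5 FPKM with BETi-211 and 13.1 FPKM in controls (log2 change -0.17 ± 0.044, adjusted p = 0.00495). SERPINI1, a serine protease inhibitor gene, rose as well, at 2.68 FPKM with BETi-211 and 0.458 FPKM in controls (1.34 ± 0.048, and 0.05 with BETd-246).

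The list for the MYC and MAX network, MYC included, had 5 of its 11 measured members called higher and 4 lower (median log2 change 0.12, and -0.16 with BETd-246). For all genes the shares were 18.7% higher and 31.4% lower. MXD1, a MAX partner that opposes MYC, averaged 7.75 FPKM with BETi-211 and 2.68 FPKM in the controls (log2 change 1.25 ± 0.045), and MYCL, a MYC paralogue, 1.40 FPKM with BETi-211 and 0.412 FPKM in controls (0.77 ± 0.047). MGA, a MAX dimerization protein, averaged 6.50 FPKM with BETi-211 and 12.7 FPKM in controls (-0.87 ± 0.072), and MLX, a partner of MXD proteins, 19.7 FPKM with BETi-211 and 29.6 FPKM in controls (-0.56 ± 0.044). Of 15 measured genes of P-TEFb, the 7SK particle and elongation factors, 4 rose and 5 fell with the deposited values (median -0.10). These counts were not far from the shares of all genes. After quantile normalization 4 rose and 3 fell, and after column-total scaling 2 rose and 7 fell. MEPCE, the enzyme that caps the 7SK RNA, averaged 39.0 FPKM with BETi-211 and 26.9 FPKM in the controls (0.52 ± 0.040), while CCNT2, a P-TEFb cyclin, averaged 6.06 FPKM with BETi-211 and 8.34 FPKM in controls (-0.41 ± 0.053) and NELFA, a subunit of the pausing factor NELF, 5.14 FPKM with BETi-211 and 10.9 FPKM in controls (-0.95 ± 0.070). With BETd-246 the log2 changes were -1.76 for MEPCE, -0.78 for CCNT2 and -0.45 for NELFA.

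The 4 largest rises were those of TNFSF9, HIST2H4B, FAM222A and CDKN1A. TNFSF9, the ligand of 4-1BB, a costimulatory receptor of T cells (chromosome 19, 6530999 to 6535928, GRCh38), had 16.5 and 16.8 FPKM with BETi-211 and 1.87 and 1.91 FPKM with BETd-246, against 1.51 and 1.21 FPKM with DMSO and 1.28 and 1.65 FPKM with thalidomide. This was a 7.34-fold rise of FPKM + 1 (log2 change 2.88 ± 0.077, adjusted p = 9.72e-14) and an 11.8-fold ratio of mean FPKM. CDKN1A, the CDK inhibitor that halts cells in G1 and is the best known p53 target (chromosome 6, 36676460 to 36687339), had 202 and 200 FPKM with BETi-211 and 47.3 and 47.8 FPKM with BETd-246, against 32.5 and 32.1 FPKM with DMSO and 32.8 and 37.2 FPKM with thalidomide. It was the most abundant of the 4 largest rises and rose 5.84-fold on the FPKM + 1 scale (log2 change 2.55 ± 0.058, adjusted p = 2.91e-14), and 5.97-fold as the ratio of mean FPKM. FAM222A had 16.7 and 16.1 FPKM with BETi-211 and 1.58 and 2.07 FPKM with BETd-246, against 1.56 and 1.92 FPKM with DMSO and 1.87 and 2.22 FPKM with thalidomide (2.59 ± 0.076, a 6.02-fold rise of FPKM + 1 and an 8.64-fold ratio of mean FPKM). HIST2H4B, a histone H4 gene, averaged 16.7 FPKM with BETi-211 and 1.91 FPKM in the controls (2.60 ± 0.074). A near-identical H4 copy exists, so how reads were split between the copies is uncertain.

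The remaining 14 rises were of mixed known roles. RGS2, a brake on G protein signalling, averaged 13.5 FPKM with BETi-211 and 1.67 FPKM in the controls (log2 change 2.44 ± 0.076), RASD1, a Ras-related GTPase, 13.9 FPKM with BETi-211 and 2.14 FPKM in controls (2.24 ± 0.069), and FGFR3, a fibroblast growth factor receptor, 8.40 FPKM with BETi-211 and 1.07 FPKM in controls (2.18 ± 0.051). CTGF, a matricellular protein and YAP target, had 234 and 226 FPKM with BETi-211, against 40.4 and 42.1 FPKM with DMSO and 73.7 and 38.8 FPKM with thalidomide (2.27 ± 0.15). Thalidomide replicate 1 was the highest of its controls. SESN3, a sestrin of the stress response, averaged 6.65 FPKM with BETi-211 and 0.470 FPKM in controls (2.38 ± 0.097), SLFN5, a schlafen gene, 15.1 FPKM with BETi-211 and 2.10 FPKM in controls (2.38 ± 0.055), and CDKN1C, a CDK inhibitor related to CDKN1A, 10.6 FPKM with BETi-211 and 2.01 FPKM in controls (1.94 ± 0.079). ID2, an inhibitor of basic helix-loop-helix factors, averaged 9.77 FPKM with BETi-211 and 1.73 FPKM in controls (1.98 ± 0.049), and SERTAD1, a regulator of cyclin D and CDK4, 51.6 FPKM with BETi-211 and 10.8 FPKM in controls (2.16 ± 0.080). METRNL, a secreted meteorin-like protein, averaged 15.3 FPKM with BETi-211 and 2.90 FPKM in controls (2.06 ± 0.076), TUBB3, a beta tubulin of neurons, 15.5 FPKM with BETi-211 and 3.29 FPKM in controls (1.95 ± 0.097), and TRIM36, a gene of the TRIM ubiquitin ligases, 17.9 FPKM with BETi-211 and 4.13 FPKM in controls (1.88 ± 0.070). FOS, a subunit of the AP-1 factor, completes them with RP11-763B22.3, at 5.53 FPKM with BETi-211 and 0.236 FPKM in controls (2.40 ± 0.12), whose reads may not be told apart from those of a near-identical parent gene. All 18 rose 3.69- to 7.34-fold on the FPKM + 1 scale with adjusted p of 1.33e-07 or less. The log2 changes of BETd-246 beside them were 0.27 for TNFSF9, 1.5 for HIST2H4B, -0.04 for FAM222A, 0.49 for CDKN1A, -0.49 for RGS2, 1.28 for RP11-763B22.3, 0.05 for SESN3, 0.36 for SLFN5, 0.40 for CTGF, 0.61 for RASD1, -0.05 for FGFR3, -0.04 for SERTAD1, -0.28 for METRNL, -0.31 for ID2, 0.48 for TUBB3, 3.47 for FOS, 0.41 for CDKN1C and -0.46 for TRIM36.

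**Figure D3:**
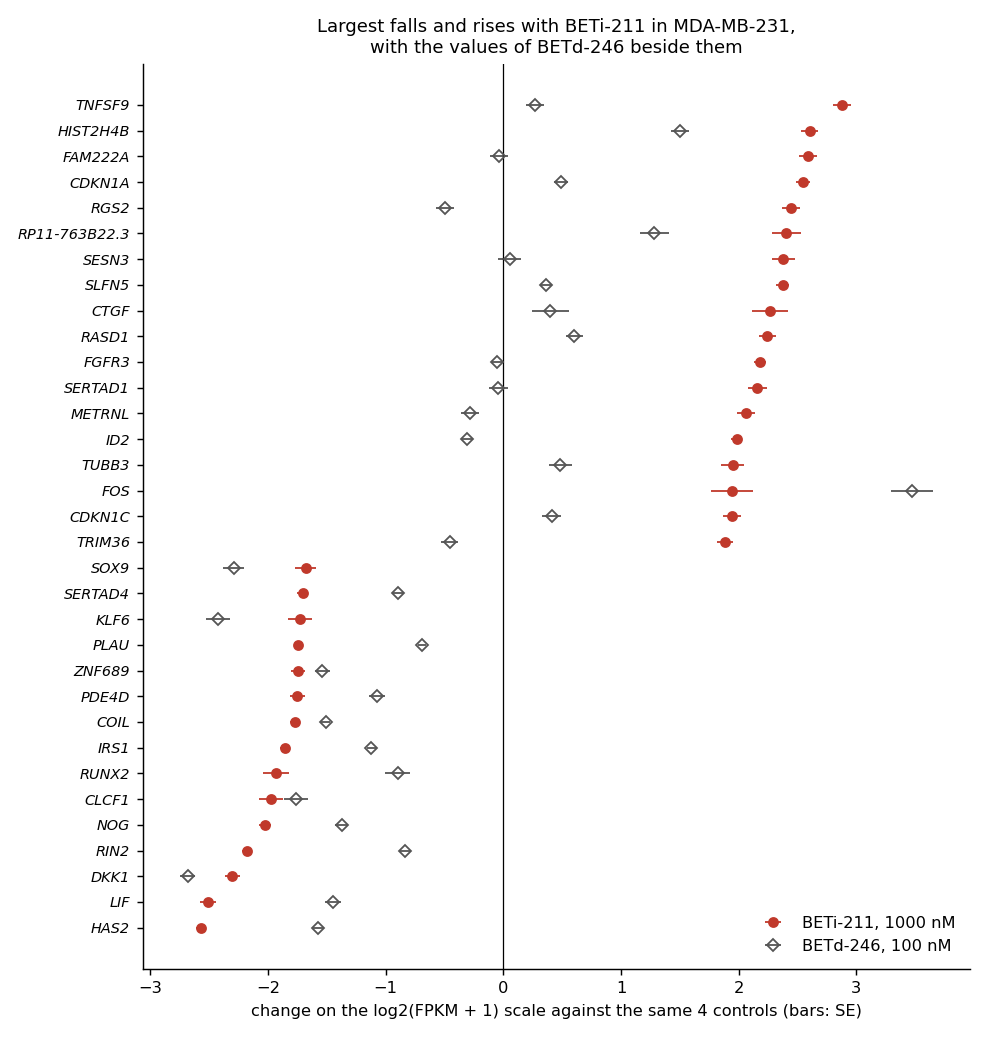
Log2 changes on the log2(FPKM + 1) scale, with SE, for the 18 largest rises and 15 largest falls with BETi-211 (circles, 1000 nM), with BETd-246 (diamonds, 100 nM) beside them. Genes run from TNFSF9 (2.88 and 0.27) at the top to HAS2 (-2.57 and -1.58) at the bottom. Genes were chosen on the BETi-211 change, doses differed and the 4 control libraries are shared.

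Promoters of the raised genes were read for known motifs because these genes moved together within 3 h. RefSeq windows on GRCh38.p14 from 250 bases before to 50 bases after the start (300 bases) were found for 10309 of the 14114 genes and searched on both strands. The TATA box TATAAA was in 23 of 128 windows of genes raised at least 2-fold (18%), in 11 of 159 of genes lowered at least 2-fold (6.92%) and in 585 of all 10309 (5.67%). The AP-1 motif TGACTCA was in 3 of the raised (2.34%), 10 of the lowered (6.29%) and 308 of all windows (2.99%), and the E-box CACGTG in 10 (7.81%), 18 (11.3%) and 1038 (10.1%). The cyclic AMP response motif TGACGTCA was in 4 (3.13%), 2 (1.26%) and 340 (3.30%), and the 10-base NF-kB consensus in 0, 1 (0.629%) and 21 (0.204%). None of these motifs contains another. Median GC content was 69.0% in raised, 63.0% in lowered and 65.7% in all windows, and a motif match describes letters and not a binding site. The 250 bases upstream of the 4 largest rises and the largest fall that hold TATAAA there (genes at 5 FPKM or more) are shown in the gene's own direction, with TATAAA in capitals. TNFSF9 is at chr19:6530776-6531025 (plus strand), CTGF at chr6:131951373-131951622 (minus strand), FOS at chr14:75278578-75278827 (plus strand), MT1X at chr16:56682220-56682469 (plus strand) and DKK1 at chr10:52314031-52314280 (plus strand). MT1X, a metallothionein that binds zinc and copper, averaged 47.2 FPKM with BETi-211 and 13.6 FPKM in the controls (log2 change 1.72).
TNFSF9: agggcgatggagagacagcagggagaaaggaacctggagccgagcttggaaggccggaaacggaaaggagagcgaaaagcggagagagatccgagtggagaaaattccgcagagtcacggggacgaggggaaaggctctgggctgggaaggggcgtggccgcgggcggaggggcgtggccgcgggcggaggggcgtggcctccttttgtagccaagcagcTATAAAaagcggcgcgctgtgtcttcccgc
CTGF: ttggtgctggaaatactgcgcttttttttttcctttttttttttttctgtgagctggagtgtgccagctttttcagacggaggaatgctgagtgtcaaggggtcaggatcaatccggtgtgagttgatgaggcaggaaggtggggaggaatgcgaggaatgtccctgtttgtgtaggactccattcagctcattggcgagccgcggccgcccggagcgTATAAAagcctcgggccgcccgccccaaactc
FOS: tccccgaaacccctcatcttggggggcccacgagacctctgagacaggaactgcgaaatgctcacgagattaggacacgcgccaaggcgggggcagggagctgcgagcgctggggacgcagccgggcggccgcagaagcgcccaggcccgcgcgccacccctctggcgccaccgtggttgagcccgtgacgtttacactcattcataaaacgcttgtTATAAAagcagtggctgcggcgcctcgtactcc
MT1X: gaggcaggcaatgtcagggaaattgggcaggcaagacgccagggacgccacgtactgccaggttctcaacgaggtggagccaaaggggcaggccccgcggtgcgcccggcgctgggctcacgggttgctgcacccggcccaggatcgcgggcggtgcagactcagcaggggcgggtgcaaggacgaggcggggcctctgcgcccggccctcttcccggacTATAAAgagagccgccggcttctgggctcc
DKK1: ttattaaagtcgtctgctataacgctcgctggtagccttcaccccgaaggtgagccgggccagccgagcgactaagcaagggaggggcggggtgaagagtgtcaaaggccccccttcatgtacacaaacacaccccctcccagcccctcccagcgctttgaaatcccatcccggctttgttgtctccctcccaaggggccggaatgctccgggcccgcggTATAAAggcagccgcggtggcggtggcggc
The capitals begin 30 bases before the annotated start in TNFSF9, 32 in CTGF, 33 in FOS, 30 in MT1X and 30 in DKK1, which fell, so the letters are shared by genes that moved in opposite directions.

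Groups of genes were read against the shares of all genes called, 18.7% higher and 31.4% lower. Immediate-early genes respond first to growth and stress signals. The list of immediate-early and AP-1 genes holds transcription factors and other genes, among them CTGF and MCL1, which are also counted in other lists. It rose as a group: 17 of 24 measured members rose and 5 fell, 11 and 4 of them at least 2-fold (median log2 change 0.76, above 0 under every scaling, and 0.12 with BETd-246). FOS had 11.8 and 11.9 FPKM with BETi-211 and 36.8 and 35.3 FPKM with BETd-246, against 2.31 and 2.12 FPKM with DMSO and 2.37 and 2.56 FPKM with thalidomide (1.94 ± 0.18). EGR1, an early growth response factor, averaged 11.8 FPKM with BETi-211 and 2.87 FPKM in controls (1.73 ± 0.15, and 4.43 with BETd-246). JUNB averaged 45.4 FPKM with BETi-211 and 14.2 FPKM in controls (1.61 ± 0.067, and 1.52 with BETd-246). JUND averaged 65.2 FPKM with BETi-211 and 21 FPKM in controls (1.59 ± 0.058, and 0.12 with BETd-246). The AP-1 subunits FOSL1 and FOSL2 went the other way. FOSL1 had 83.9 FPKM in both BETi-211 libraries and 110 and 111 FPKM with BETd-246, against 247 and 239 FPKM with DMSO and 241 and 255 FPKM with thalidomide (-1.54 ± 0.055, and -1.14 with BETd-246). FOSL2 averaged 25.2 FPKM with BETi-211 and 63.6 FPKM in controls (-1.30 ± 0.033, and -1.59 with BETd-246). Of the DUSP phosphatases and Sprouty proteins that damp the MAP kinase pathway, 11 of 13 fell and 1 rose (median -0.50, below 0 under every scaling, and -1.42 with BETd-246). DUSP1 was the member that rose, at 57.9 FPKM with BETi-211 and 16.9 FPKM in the controls (1.72 ± 0.055, and -0.46 with BETd-246). DUSP4 averaged 22.9 FPKM with BETi-211 and 49.3 FPKM in controls (-1.07 ± 0.055, and -2.37 with BETd-246). DUSP10 averaged 9.61 FPKM with BETi-211 and 20.1 FPKM in controls (-0.99 ± 0.048, and -2.04 with BETd-246). SPRY1 averaged 0.742 FPKM with BETi-211 and 4.0 FPKM in controls (-1.52 ± 0.069, and -1.91 with BETd-246). Without thalidomide replicate 1, 17 immediate-early genes were called higher and 5 lower, and 1 DUSP or Sprouty gene higher and 10 lower.

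**Figure D4:**
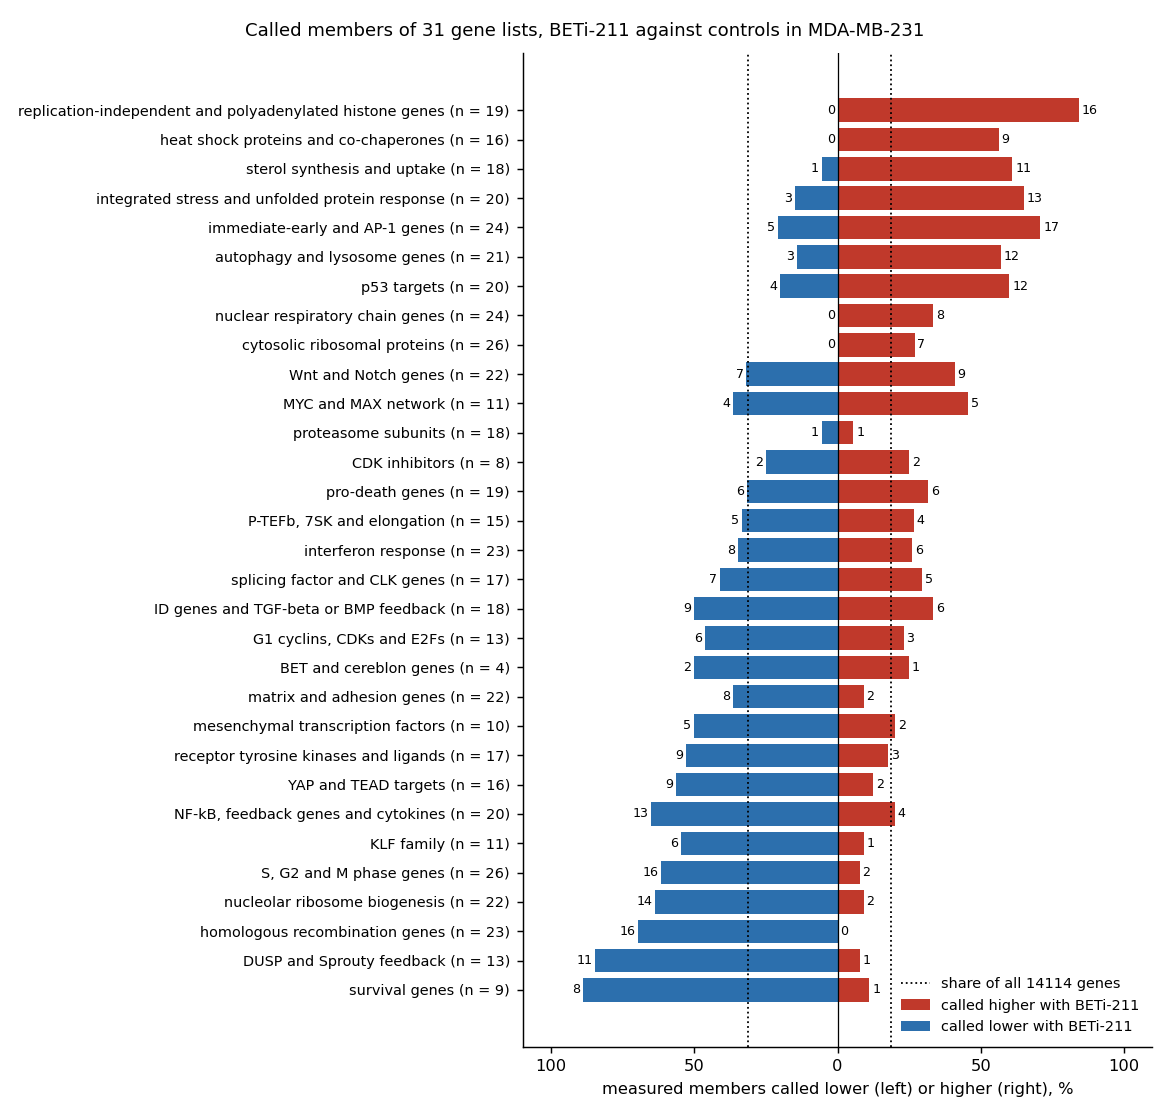
Share of the measured members of 31 gene lists called higher (right, red) or lower (left, blue) with BETi-211 against controls, with the number called at the end of each bar and dotted lines at the shares of all 14114 genes (18.7% and 31.4%). Histone genes (16 of 19 higher) stand at the top and survival genes (8 of 9 lower) at the bottom.

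Genes that keep cells alive were lower. Of 9 measured survival genes 8 fell and 1 rose, also without thalidomide replicate 1 (median -0.58, below 0 under every scaling). BCL2L1, which encodes the anti-death protein BCL-xL, had 60.4 and 60.2 FPKM with BETi-211 and 96.1 and 93.7 FPKM with BETd-246, against 118 and 114 FPKM with DMSO and 111 and 119 FPKM with thalidomide (log2 change -0.93 ± 0.036, adjusted p = 5.81e-12, and -0.28 with BETd-246). BIRC3 and BIRC2, ubiquitin ligases of the TNF receptor pathway, averaged 8.53 FPKM with BETi-211 and 24.1 FPKM in controls (-1.40 ± 0.040) and 50.5 FPKM with BETi-211 and 96.9 FPKM in controls (-0.92 ± 0.057). BCL2L2 averaged 4.34 FPKM with BETi-211 and 7.41 FPKM in controls (-0.65 ± 0.041). MCL1, another anti-death gene of the BCL2 family, was the member that rose, at 125 FPKM with BETi-211 and 105 FPKM in controls (0.25 ± 0.045, adjusted p = 0.000221, and -1.70 with BETd-246). Pro-death genes were mixed, with 6 of 19 higher and 6 lower (median 0.06, and -0.02 after column-total scaling), and 10 higher and 5 lower after upper-quartile or median-of-ratios scaling. BCL2L11, the BH3-only gene BIM, averaged 9.23 ± 0.48 FPKM with BETi-211 and 4.0 ± 1.1 FPKM in the controls (1.06 ± 0.13, adjusted p = 4.77e-06, and -0.55 with BETd-246). BIK, also BH3-only, averaged 3.37 FPKM with BETi-211 and 0.609 FPKM in controls (1.44 ± 0.12). The death receptor TNFRSF10A averaged 10.2 FPKM with BETi-211 and 19.1 FPKM in controls (-0.85 ± 0.056) and its adaptor FADD 7.13 FPKM with BETi-211 and 13.9 FPKM in controls (-0.88 ± 0.063).

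Of 20 measured p53 target genes 12 rose and 4 fell, 5 and 2 of them at least 2-fold (median 0.32, above 0 under every scaling, and -0.33 with BETd-246). CDKN1A rose as described, and SESN2, a sestrin that restrains mTORC1, averaged 9.25 FPKM with BETi-211 and 2.98 FPKM in the controls (1.37 ± 0.046, and -0.91 with BETd-246). AEN, an apoptosis-enhancing nuclease, averaged 7.99 FPKM with BETi-211 and 23.5 FPKM in controls (-1.44 ± 0.054, and -1.67 with BETd-246), and PLK2, a polo-like kinase, 62.6 FPKM with BETi-211 and 125 FPKM in controls (-0.98 ± 0.051, and -3.45 with BETd-246). Of 8 CDK inhibitor genes 2 rose, CDKN1A and CDKN1C, and 2 fell (median 0.05): CDKN2C averaged 17 FPKM with BETi-211 and 22.7 FPKM in controls (-0.40 ± 0.041) and CDKN1B 12.1 FPKM with BETi-211 and 14.2 FPKM in controls (-0.21 ± 0.070, adjusted p = 0.0212). After upper-quartile or median-of-ratios scaling 4 of the 8 rose and 1 fell. Of 13 G1 cyclins, CDKs and E2Fs 3 rose and 6 fell (median -0.07, but 0.01 after median-of-ratios scaling). CCND1, the gene of cyclin D1, averaged 138 FPKM with BETi-211 and 187 FPKM in controls (-0.43 ± 0.032), its kinase CDK6 39.3 FPKM with BETi-211 and 53 FPKM in controls (-0.42 ± 0.037), and the S-phase regulator E2F2 1.19 FPKM with BETi-211 and 3.96 FPKM in controls (-1.18 ± 0.038), while CCNE1, cyclin E1, averaged 16.1 FPKM with BETi-211 and 10.8 FPKM in controls (0.54 ± 0.048). Of the 26 genes of DNA replication and mitosis (S, G2 and M phase) 16 were called lower and 2 higher, none of them by 2-fold (median -0.15). The same list had 11 lower and 4 higher after upper-quartile scaling, 10 and 4 after median-of-ratios scaling (median -0.07), and 21 and 1 after column-total scaling. The mitotic kinase AURKA averaged 73.3 FPKM with BETi-211 and 145 FPKM in controls (-0.97 ± 0.043). PLK1 averaged 39.4 FPKM with BETi-211 and 60.7 FPKM in controls (-0.61 ± 0.035), and CCNA2, cyclin A2, 96.7 FPKM with BETi-211 and 132 FPKM in controls (-0.44 ± 0.050). The mitotic transcription factor FOXM1 averaged 47.3 FPKM with BETi-211 and 58.1 FPKM in controls (-0.29 ± 0.040). Homologous recombination genes, which repair broken DNA, fell in 16 of 23 cases, and the other 7 were not called (median -0.22). After quantile or upper-quartile scaling 2 of them were called higher and 11 or 13 lower. XRCC2 averaged 8.45 FPKM with BETi-211 and 14.3 FPKM in controls (-0.69 ± 0.048). FANCF averaged 0.348 FPKM with BETi-211 and 1.12 FPKM in controls (-0.65 ± 0.058). RAD51D averaged 2.95 FPKM with BETi-211 and 4.90 FPKM in controls (-0.58 ± 0.058), and PALB2, the partner of BRCA2, 3.73 FPKM with BETi-211 and 5.69 FPKM in controls (-0.50 ± 0.034).

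Inflammatory genes tended downward: of 20 measured NF-kB genes, feedback genes and cytokines 13 fell and 4 rose (median -0.30). Besides LIF and BIRC3, the receptor adaptor TRAF1 averaged 2.47 FPKM with BETi-211 and 7.71 FPKM in the controls (-1.32 ± 0.066). IL11, a cytokine of the same family as LIF, rose: it had 249.9 and 255 FPKM with BETi-211 and 45.9 and 51.2 FPKM with BETd-246, against 64.7 and 67.1 FPKM with DMSO and 64.9 and 78.9 FPKM with thalidomide (1.86 ± 0.081, adjusted p = 1.95e-11, and -0.49 with BETd-246). Of 23 interferon response genes 6 rose and 8 fell (median -0.00, but 0.05 with quantile normalization and 0.07 with upper-quartile scaling). The transcription factor IRF7 averaged 18.4 FPKM with BETi-211 and 5.22 FPKM in controls (1.64 ± 0.080). IFI6, an interferon-induced gene, averaged 10.7 FPKM with BETi-211 and 6.16 FPKM in controls (0.71 ± 0.059). IFIT2, another such gene, averaged 25.2 FPKM with BETi-211 and 17 FPKM in controls (0.55 ± 0.067). The transcription factor IRF1 averaged 12.7 FPKM with BETi-211 and 22.1 FPKM in controls (-0.76 ± 0.047). Of 16 YAP and TEAD targets 9 fell and 2 rose (median -0.22): F3, tissue factor, averaged 121 FPKM with BETi-211 and 263 FPKM in controls (-1.12 ± 0.057), and AJUBA, a LIM protein, 26.0 FPKM with BETi-211 and 65.0 FPKM in controls (-1.29 ± 0.040). TGFB2 averaged 13 FPKM with BETi-211 and 26.2 FPKM in controls (-0.95 ± 0.033), whereas CTGF was among the largest rises. Among 18 ID genes and genes of TGF-beta or BMP feedback 6 rose and 9 fell (median -0.11, with 7 called each way after quantile normalization). BMP4, a ligand of that pathway, averaged 13.4 FPKM with BETi-211 and 41.9 FPKM in controls (-1.58 ± 0.042). The ubiquitin ligase SMURF2 averaged 55.9 FPKM with BETi-211 and 114 FPKM in controls (-1.02 ± 0.031). ID4 averaged 3.50 FPKM with BETi-211 and 0.342 FPKM in controls (1.74 ± 0.059).

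Of 22 Wnt and Notch genes 9 rose and 7 fell, while after column-total scaling 7 rose and 9 fell (median -0.08). Besides DKK1, the Wnt receptor FZD2 averaged 6.56 FPKM with BETi-211 and 13.8 FPKM in the controls (-0.97 ± 0.074), the Notch feedback regulator NRARP 3.34 FPKM with BETi-211 and 1.24 FPKM in controls (0.95 ± 0.064), and LFNG, a glycosyltransferase that modifies Notch, 18.7 FPKM with BETi-211 and 7.34 FPKM in controls (1.24 ± 0.077, and -1.33 with BETd-246). Of 17 receptor tyrosine kinases and ligands 9 fell and 3 rose (median -0.19). The ligands EREG and NRG1 averaged 3.57 FPKM with BETi-211 and 7.82 FPKM in controls (-0.95 ± 0.054) and 14.7 FPKM with BETi-211 and 24.1 FPKM in controls (-0.67 ± 0.043), and the receptors EPHA2 and EGFR 46.4 FPKM with BETi-211 and 68.7 FPKM in controls (-0.56 ± 0.053) and 42.5 FPKM with BETi-211 and 49.8 FPKM in controls (-0.22 ± 0.072, adjusted p = 0.0195). Of 22 matrix and adhesion genes 8 fell and 2 rose (median -0.07), HAS2 and PLAU most, with LAMB3, a laminin chain, at 75.9 FPKM with BETi-211 and 104 FPKM in controls (-0.44 ± 0.064) and the protease MMP14 at 63.1 FPKM with BETi-211 and 79.5 FPKM in controls (-0.33 ± 0.037). Mesenchymal transcription factors fell in 5 of 10 cases and rose in 2 (median -0.18). ZEB2 averaged 1.40 FPKM with BETi-211 and 3.50 FPKM in controls (-0.91 ± 0.051). SNAI2 averaged 8.26 FPKM with BETi-211 and 13 FPKM in controls (-0.60 ± 0.038, and -2.35 with BETd-246). SNAI1 averaged 2.05 FPKM with BETi-211 and 0.604 FPKM in controls (0.93 ± 0.11). In the KLF family of zinc finger factors 6 of 11 fell and 1 rose (median -0.28, and -0.95 with BETd-246): KLF11 averaged 3.04 FPKM with BETi-211 and 8.22 FPKM in controls (-1.19 ± 0.049). KLF3 averaged 5.69 FPKM with BETi-211 and 8.63 FPKM in controls (-0.53 ± 0.054), and KLF5, the member that rose, 21.9 FPKM with BETi-211 and 12.5 FPKM in controls (0.77 ± 0.063, and -1.29 with BETd-246).

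Stress and metabolic genes tended upward. In the list for the unfolded protein response and the integrated stress response, 13 of 20 measured members rose and 3 fell (median 0.22, and -0.79 with BETd-246). ERN1, the sensor IRE1 of the endoplasmic reticulum, averaged 12.4 FPKM with BETi-211 and 4.43 FPKM in the controls (1.31 ± 0.047). The transcription factor CEBPB averaged 22.2 FPKM with BETi-211 and 15.2 FPKM in controls (0.52 ± 0.047, and -1.40 with BETd-246). The pseudokinase TRIB3 averaged 2.98 FPKM with BETi-211 and 9.73 FPKM in controls (-1.43 ± 0.064). Heat shock genes rose in 9 of 16 cases, and the other 7 were not called (median 0.18): HSPA8, the constitutive chaperone, averaged 3091 FPKM with BETi-211 and 1916 FPKM in controls (0.69 ± 0.064), its co-chaperone DNAJB1 151 FPKM with BETi-211 and 74.5 FPKM in controls (1.01 ± 0.044), and the near-identical, hence uncertain, copies HSPA1A and HSPA1B 18.9 FPKM with BETi-211 and 8.55 FPKM in controls (1.06 ± 0.097) and 95.1 FPKM with BETi-211 and 30.7 FPKM in controls (1.60 ± 0.091). Without thalidomide replicate 1, 10 heat shock genes were called higher and 1 lower, and after column-total scaling 7 and 1. Of 18 genes of sterol synthesis and uptake 11 rose and 1 fell (median 0.17). INSIG1, which holds the SREBP complex in the endoplasmic reticulum, averaged 33.7 FPKM with BETi-211 and 13.4 FPKM in controls (1.26 ± 0.044). The isoprenoid isomerase gene IDI1 averaged 52.5 FPKM with BETi-211 and 27.1 FPKM in controls (0.93 ± 0.060). Of 21 autophagy and lysosome genes 12 rose and 3 fell (median 0.16). NEU1, a lysosomal sialidase, averaged 68.1 FPKM with BETi-211 and 37.4 FPKM in controls (0.85 ± 0.056) and ATG2A, a lipid transfer protein of autophagosomes, 21 FPKM with BETi-211 and 13.5 FPKM in controls (0.60 ± 0.062), against falls of the transcription factors TFEB (1.15 FPKM with BETi-211 and 2.44 FPKM in controls, -0.67 ± 0.069) and MITF (4.0 FPKM with BETi-211 and 6.81 FPKM in controls, -0.64 ± 0.055).

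Genes of the RNA and protein machinery had list medians from -0.19 to 0.13. Nucleolar ribosome biogenesis genes fell in 14 of 22 cases and rose in 2 (median -0.19), but 10 fell and 6 rose after upper-quartile scaling and 9 fell and 6 rose after median-of-ratios scaling. WDR43 averaged 40.5 FPKM with BETi-211 and 76.4 FPKM in the controls (-0.89 ± 0.042). NOP2 averaged 27.5 FPKM with BETi-211 and 42.9 FPKM in controls (-0.62 ± 0.050). UTP15 averaged 15 FPKM with BETi-211 and 23.7 FPKM in controls (-0.62 ± 0.047), and POLR1B, a subunit of RNA polymerase I, 17.9 FPKM with BETi-211 and 27.1 FPKM in controls (-0.58 ± 0.041). Cytosolic ribosomal protein genes had 7 of 26 called higher and the other 19 not called with the deposited values (median 0.13), but 2 higher and 7 lower after quantile normalization (median -0.03) and all 26 higher after upper-quartile scaling. RPS2, RPL10A, RPL3 and RPL15 had log2 changes of 0.22 ± 0.043, 0.24 ± 0.061, 0.20 ± 0.045 and 0.17 ± 0.054. Nuclear respiratory chain genes had 8 of 24 called higher and the other 16 not called (median 0.09), against 2 higher and 3 lower after column-total scaling and 16 higher after upper-quartile scaling. NDUFB10 averaged 62.3 FPKM with BETi-211 and 52.9 FPKM in controls (0.23 ± 0.043). COX5B averaged 121 FPKM with BETi-211 and 105 FPKM in controls (0.20 ± 0.067). COX5A averaged 102 FPKM with BETi-211 and 90.9 FPKM in controls (0.16 ± 0.040) and SDHA 66.0 FPKM with BETi-211 and 60.2 FPKM in controls (0.13 ± 0.034). Of 18 proteasome subunits PSMB1 was called higher (381 FPKM with BETi-211 and 340 FPKM in controls, 0.17 ± 0.061) and PSMD11 lower (75.3 FPKM with BETi-211 and 85.6 FPKM in controls, -0.18 ± 0.030), with a median of 0.01. After upper-quartile scaling 9 were called higher and 1 lower (median 0.09), after median-of-ratios scaling 8 and 1, and after column-total scaling 3 were called lower (median -0.07). The higher FPKM sums of the BETi-211 libraries move with these small changes, and their part in them was not tested. Of 17 splicing factor and CLK kinase genes 5 rose and 7 fell, but 7 rose and 5 fell after upper-quartile scaling and 3 rose and 9 fell after column-total scaling (median -0.08). CLK1 averaged 32.4 FPKM with BETi-211 and 24.2 FPKM in controls (0.40 ± 0.071). TRA2B averaged 129 FPKM with BETi-211 and 98.4 FPKM in controls (0.39 ± 0.050). SRSF4 averaged 14.4 FPKM with BETi-211 and 22.4 FPKM in controls (-0.60 ± 0.033) and SRSF1 116 FPKM with BETi-211 and 133 FPKM in controls (-0.20 ± 0.036).

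Histone genes rose. Of 19 histone genes with polyadenylated or replication-independent transcripts 16 rose and the other 3 were not called (median 0.48, above 0 under every scaling). H2AFX, the variant phosphorylated at DNA breaks, averaged 151 FPKM with BETi-211 and 101 FPKM in the controls (0.58 ± 0.045), and the linker histone genes H1FX and H1F0 54.3 FPKM with BETi-211 and 30.0 FPKM in controls (0.84 ± 0.064) and 42.6 FPKM with BETi-211 and 27.0 FPKM in controls (0.64 ± 0.054). HIST1H2AC averaged 192 FPKM with BETi-211 and 118 FPKM in controls (0.70 ± 0.074). The table held 65 HIST cluster genes, of which 42 were at 1 FPKM or more in the controls, and 28 of those rose and 1 fell (median 0.34). Genes annotated as small nuclear RNA, a class that builds the spliceosome, rose in 20 of 33 cases (median 0.65, and 1.54 with BETd-246). The 33 include copies with a P symbol, of which some rose and others were not called. RNU2-27P, also such a copy, was the only gene of the class that fell. It and RNU4ATAC are named after their values were seen. The U5 genes RNU5A-1, RNU5B-1, RNU5D-1, RNU5E-1 and RNU5F-1 rose (median 0.99, and 2.81 with BETd-246), and of the U5 copies with a P symbol RNU5E-4P rose (0.90) and RNU5A-8P was not called (0.42, adjusted p = 0.0728). RNU4ATAC, the U4 RNA of the minor spliceosome, had 23.5 and 24.4 FPKM with BETi-211 and 94.7 and 105 FPKM with BETd-246, against 11.5 and 7.19 FPKM with DMSO and 6.22 and 7.63 FPKM with thalidomide (1.48). Reads of such copies and of an overlapping antisense gene cannot be separated in libraries that do not mark the strand. Of 164 small nucleolar RNA genes 21 rose (12.8%) and 5 fell (3.05%), and of 1107 long non-coding genes 117 rose (10.6%) and 296 fell (26.7%). These shares were below those of all genes, 18.7% higher and 31.4% lower. Of 12046 protein-coding genes 2402 rose (19.9%) and 4009 fell (33.3%), near the shares of all genes. Genes with ZNF symbols, mostly zinc finger transcription factors, fell in 230 of 434 cases (53%) and rose in 78 (median -0.18, and -0.71 with BETd-246).

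The direction of large changes also differed by control level. In the lowest quintile of protein-coding genes (up to 2.52 FPKM in the controls) 63 genes rose and 4 fell at least 2-fold, in the second quintile 47 and 52, in the third 26 and 67, in the fourth 13 and 47, and in the highest (35.8 FPKM or more) 7 and 24. Genes under 1 FPKM cannot fall 2-fold on a log2(FPKM + 1) scale, which bears on the lowest quintile. Falls were called for 18.8% of the genes in the quintile with the shortest transcripts and for 40.3% in the quintile with the longest. By gene span the called falls ranged from 27.4% to 36.4% over the quintiles, and the shortest quintile held 61 of the 2-fold rises and 52 of the 2-fold falls, the next 36 and 53, and the other 3 quintiles 16 to 27 rises and 27 to 32 falls each. These are counts over genes, which are not replicates, and their relation to detection at different levels was not tested.

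How far the response was shared by the other lines was asked by subtracting from the BETi-211 effect in MDA-MB-231 its mean in the lines MDA-MB-468 and MDA-MB-157, each against its own 4 controls with the same dose and time. Both are triple-negative lines labelled basal as well. The effect differed for 2674 genes (18.9%): it was lower in MDA-MB-231 for 1069 (7.57%) and higher for 1605 (11.4%), by at least 2-fold for 42 (0.298%) and 54 (0.383%). NOG had a log2 change of -2.02 in MDA-MB-231, 0.04 in MDA-MB-157 and also -0.24 in MDA-MB-468 (difference -1.93 ± 0.067, limma adjusted p = 4.33e-11), and HAS2 -2.57, -1.64 and -0.00 (difference -1.75, adjusted p = 5.97e-12). A gene under 1 FPKM in another line cannot fall 2-fold there on this scale. Levels in the other lines are not given here, and their part in these differences was not tested. Both genes were chosen for their large downward differences. The EGF receptor ligand genes HBEGF and AREG were the other named differences on that side: HBEGF had log2 changes of 0.33, 1.57 and 2.28 in the same order of lines (difference -1.60, adjusted p = 6.28e-11), and AREG of -0.86, 0.53 and 0.88 (difference -1.56, adjusted p = 3.06e-08). HBEGF had 45.8 and 45.9 FPKM with BETi-211 in MDA-MB-231, against 36.9 and 36.6 FPKM with DMSO and 33.2 and 39.1 FPKM with thalidomide, and AREG had 15.4 and 15.3 FPKM with BETi-211, against 30.2 and 29.3 FPKM with DMSO and 25 and 30.6 FPKM with thalidomide.

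SAT1, PIK3R1, TNFSF9 and IL11 had the largest called differences in the other direction. SAT1, the polyamine acetyltransferase, had 92.3 and 78.2 FPKM with BETi-211, against 22.4 and 23.4 FPKM with DMSO and 20.1 and 25.3 FPKM with thalidomide, and its log2 change was 1.86 in MDA-MB-231, 0.26 in MDA-MB-157 and 0.17 in MDA-MB-468 (difference 1.64, adjusted p = 2.96e-09). PIK3R1, the regulatory subunit of PI3 kinase, had 13.6 and 13 FPKM with BETi-211, against 3.37 and 3.21 FPKM with DMSO and 4.22 and 3.00 FPKM with thalidomide (1.69, 0.70 and -0.52, difference 1.60, adjusted p = 5.66e-09). TNFSF9 had log2 changes of 2.88, 0.87 and 1.73 (difference 1.58, adjusted p = 7.12e-09) and IL11 of 1.86, 0.68 and 0.05 (difference 1.497, adjusted p = 1.86e-08). Other leading genes differed less, and their changes follow in the order MDA-MB-231, then MDA-MB-157, then MDA-MB-468. CDKN1A had log2 changes of 2.55, 1.29 and 2.27 (difference 0.77, adjusted p = 8.88e-07), FOSL1 of -1.54, -0.93 and -0.78 (difference -0.68, adjusted p = 1.64e-06), HEXIM1 of 0.64, 1.78 and 0.90 (difference -0.70, adjusted p = 7.02e-07) and LIF of -2.51, -0.33 and -2.13 (difference -1.28, adjusted p = 1.7e-08). DKK1 fell in every line, by 2.30, 2.61 and 2.67 (difference 0.34, adjusted p = 0.00495). No difference was called for MYC (-0.58, 0.28 and -1.58, adjusted p = 0.633), whose value lay between those of the other lines, nor for BRD2 (1.20, 0.83 and 1.43, adjusted p = 0.361), BCL2L1 (-0.93, -0.86 and -1.07, adjusted p = 0.632) or MCL1 (0.25, 0.31 and 0.20, adjusted p = 0.962). The counts rested partly on single libraries: without thalidomide replicate 2 of MDA-MB-231 1905 genes differed downward and 2622 upward, without BETi-211 replicate 2 667 differed downward, and without BETi-211 replicate 1 1018 differed upward.

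**Figure D5:**
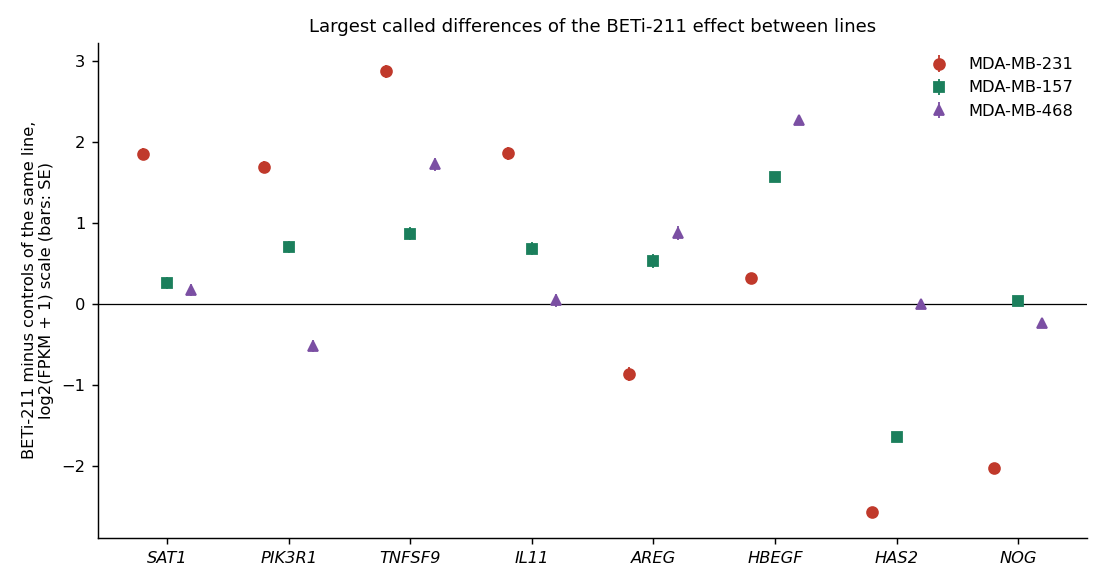
Change with BETi-211 against the controls of the same line on the log2(FPKM + 1) scale, with SE, for the 4 genes with the largest called difference each way. Circles are MDA-MB-231, squares MDA-MB-157 and triangles MDA-MB-468. SAT1, PIK3R1, TNFSF9 and IL11 (left) are highest in MDA-MB-231, at 1.69 to 2.88, and AREG, HBEGF, HAS2 and NOG (right) are lowest in it, at -2.57 to 0.33.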

How the data were processed

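Per the labels' protocols, libraries came from RNA freed of ribosomal RNA, by random priming with a TruSeq v2 kit that does not mark the strand. Expression values of 14114 genes in 24 libraries were deposited by the authors as FPKM, a unit that the file does not name and that was inferred from the values. The submitters' processing notes name Bowtie 0.12.8, the build GRCh38.p5 and bcl2fastq 2.17.1.14. Not given in the sources used here are the FPKM program, the annotation and the gene filter, and with no counts no counting interval was computed. Of the identifiers 13951 were found in GENCODE 29 (GRCh38), which gave gene types and gene coordinates (1-based). Values were tested as log2(FPKM + 1) on all 24 libraries in R 4.3.3 with limma 3.58.1, with 12 group coefficients, a variance trend and no robust step (12 residual and 3.32 prior degrees of freedom), two-sided, with Benjamini-Hochberg adjustment over all genes. The contrast was the BETi-211 coefficient minus the average of those of DMSO and thalidomide. The pseudocount of 1 understates changes of low genes. The test was checked on simulated data. Counts, figures and promoter searches used Python 3.11.15, numpy 2.4.6, pandas 2.3.3 and matplotlib 3.10.9. Members and lists were chosen with earlier results of these data known. Named genes were the 15 largest falls and 10 largest rises among called genes that reached 5 FPKM on average in treated or control libraries and had both treated libraries beyond all controls, 8 further protein-coding rises, the 4 largest called differences between lines each way, 17 fixed genes and up to 4 members of each of 31 lists with the smallest adjusted p. Some genes of that rule are not reported here. The series description calls the replicates independent biological ones. Replicate numbers showed little pairing in MDA-MB-231 (deviations correlated at -0.207 to 0.195 between its groups). The range was -0.114 to 0.147 in MDA-MB-157 and -0.121 to 0.335 in MDA-MB-468, highest between DMSO and thalidomide. Alternatives were pseudocounts of 0.1 and 5, 4 scalings, a filter at 5 FPKM, no trend or a robust step, and DMSO or thalidomide alone. Others were the line fitted alone, a replicate block and leaving out each library except those of BETd-246. Promoter windows, none from chromosome 8 being printed, are those of RefSeq. They were matched by symbol, and of several the one nearest to the GENCODE start was taken.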

Additional observations from a re-analysis of the deposited data

Results flagged for a closer look

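Single control libraries lay far from the other 3 controls for 13 of the 147 named genes, by Dixon's criterion for 4 values, and chance alone gives about 1 in 20 groups. Thalidomide replicate 1 was the distant library for 10 of them. Its value was high for CTGF (73.7 FPKM) and low for DKK1 (194 FPKM), TRIM36 (3.74 FPKM), MLX (26.9 FPKM), AEN (21.4 FPKM), AURKA (131 FPKM), CCNA2 (115 FPKM), NOP2 (39.5 FPKM), TRA2B (87.2 FPKM) and CLK1 (21.6 FPKM). Thalidomide replicate 2 was the distant one, and high, for CDKN1A (37.2 FPKM), IL11 (78.9 FPKM) and HSPA1B (35.0 FPKM).

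The effect of BETi-211 differed between MDA-MB-231 and the other lines by limma's test of the difference for NOG (-1.93 on the log2 scale), HAS2 (-1.75), HBEGF (-1.60), AREG (-1.56), SAT1 (1.64), PIK3R1 (1.60), TNFSF9 (1.58) and IL11 (1.497), the 4 largest called differences each way.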

How the results depend on the processing

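Of 200 recomputed counts 182 stayed within 1.5 times the reported one. Called rises (2641) numbered 4053 with upper-quartile and 4044 with median-of-ratios scaling and 1698 with 6 libraries fitted alone. The 2-fold falls (207) and rises (191) numbered 417 and 358 with a pseudocount of 0.1, 50 and 66 with 5, and the falls 132 after quantile normalization. The line differences of 2-fold (42 downward, 54 upward) numbered 78 and 148 with a pseudocount of 0.1 and 9 and 8 with 5. A filter at 5 FPKM left 933 upward differences, 27 of 2-fold. Leaving out each library in turn gave 3552 to 4802 falls, 2008 to 3456 rises, 199 to 225 falls and 188 to 195 rises of 2-fold, 667 to 1905 downward and 1018 to 2622 upward differences, and 37 to 52 and 50 to 63 of 2-fold. The BETd-246 libraries were not among those left out. Apart from the choice of scale and the fewer genes or libraries, the causes were not tested. The main fit held no replicate block, and with a replicate block 4420 genes fell, 2637 rose (207 and 191 of 2-fold), and 1043 and 1547 differed (43 and 53). Of 147 named genes 135 kept call and direction in every alternative run, and 11 lost a call in at least 1: CRBN, EGFR, CDKN1B, RPS2, RPL3, RPL10A, RPL15, COX5A, COX5B, SDHA and PSMB1. BRD3 was -0.0105 without thalidomide replicate 2, and was called at 0.18 after quantile normalization (adjusted p = 0.0429) and without thalidomide replicate 1 (0.18, adjusted p = 0.00879). With no counts deposited, genes near 1 FPKM are the least certain.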

Other observations

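Further gene families were looked at after their values were seen, and their counts are descriptions. Over all genes 18.7% were called higher and 31.4% lower. Of 17 measured ephrin and Eph receptor genes, which signal between touching cells, 7 rose and 3 fell with BETi-211. The ligands EFNA4, EFNB1 and EFNB2 averaged 17.5, 7.42 and 27.4 FPKM with BETi-211 and 4.51, 1.93 and 9.49 FPKM in the controls (log2 changes 1.75, 1.52 and 1.44), and the receptor EPHB3 5.4 FPKM with BETi-211 and 0.938 FPKM in controls (1.72). The falls were EFNA5, EPHA2 and EPHB4 (-0.59, -0.56 and -0.15). With BETd-246 the log2 changes were -1.20 for EFNA4, -0.04 for EFNB1, -0.98 for EFNB2 and -0.41 for EPHB3. All 3 sestrin genes rose, SESN1 at 6.14 FPKM with BETi-211 and 2.56 FPKM in controls (1.01 ± 0.056), beside SESN2 and SESN3. Of 4 metallothionein genes MT1X, MT1E and MT2A rose (1.72, 0.68 and 0.60), and MT1F had a log2 change of -0.18 (adjusted p = 0.126). Of 7 TRAF adaptor genes, which carry signals of TNF receptors such as the one bound by TNFSF9, 5 fell, TRAF1 and TRAF2 most (-1.32 and -1.19). TRAF4 and TRAF7 had log2 changes of 0.22 and 0.11 and were not called. TXNIP, a thioredoxin-binding brake on glucose uptake, had 464 and 463 FPKM with BETi-211, against 152 and 150 FPKM with DMSO and 142 and 165 FPKM with thalidomide (1.60 ± 0.048).

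Several single genes outside the naming rule are given for follow-up, also chosen after their values were seen. CD274, which encodes the immune checkpoint ligand PD-L1, had 5.16 and 4.80 FPKM with BETi-211, against 13.6 and 13.6 FPKM with DMSO and 11.8 and 14.7 FPKM with thalidomide (-1.26 ± 0.063, limma adjusted p = 1.08e-10). CXCR4, a chemokine receptor, had 4.86 and 4.76 FPKM with BETi-211, against 13 and 13 FPKM with DMSO and 10.3 and 12.4 FPKM with thalidomide (-1.17 ± 0.070). MDM2, the ubiquitin ligase of p53 and itself a p53 target, fell (19 and 19.8 FPKM with BETi-211, against 44.4 and 41.4 FPKM with DMSO and 40.4 and 38.2 FPKM with thalidomide, -1.04 ± 0.072), while CDKN1A, a target of the same factor, rose. Of single chromatin genes, the histone methyltransferases SUV39H1 and SETDB1 had log2 changes of -1.41 ± 0.049 and -1.11 ± 0.051 and the acetyl-lysine reader ZMYND8 -1.61 ± 0.043, against 1.43 ± 0.044 for the DNA methyltransferase DNMT3B. BDNF, a neurotrophin gene, had a log2 change of -1.48 ± 0.056 and CSF1, a growth factor of macrophages, one of -1.39 ± 0.053. GATA3, a luminal factor, had 0.281 and 0.253 FPKM with BETi-211, against 1.94 and 1.90 FPKM with DMSO and 2.01 and 1.91 FPKM with thalidomide (-1.21 ± 0.051). Of 13 mitochondrially encoded protein genes 2 were called higher (15.4%, against 18.7% of all genes), MT-ND3 and MT-CO3 (0.29 and 0.25). Mitochondrial shares of the FPKM sum were 13.4% to 14.28% with BETi-211 and 9.79% to 13.99% in the controls.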
